A study of Mus musculus with 17 samples.

Results

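The LIF receptor and Jak-Stat genes described here were the receptor chains Lifr and Il6st, the kinases Jak1 and Jak2, the transcription factors Stat3, Stat5a and Stat5b, and the feedback inhibitors Socs2 and Socs3. These 9 genes were chosen by symbol from the 23891 gene symbols in the tables, and each was read from its RefSeq transcript with the highest mean level over the samples. RNA was sequenced from 4 lines of spermatogonial stem cells (SSC), 6 lines of multipotent adult spermatogonial-derived stem cells (MASC), 2 lines of embryonic stem cells (ESC), 2 lines of induced pluripotent stem cells (iPS), 2 cultures of haematopoietic stem and progenitor cells (HSC) and 1 sample of mouse embryonic fibroblasts (MEF). The unit was FPKM, fragments per kilobase of transcript scaled to the mapped fragments of the library, so levels can be set side by side between genes of different length. At 1 FPKM the samples held between 1.26 and 3.23 reads on each base of a transcript.

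SSC lines came from the testes of adult mice of the Oct4-GFP (SSC.1, SSC.2), C57Bl/6J (SSC.3) and 129mix (SSC.4) backgrounds. They were grown with GDNF at 10 ng/ml, bFGF at 10 ng/ml and EGF at 20 ng/ml on a MEF feeder layer, in a medium for which no LIF was listed. MASC lines were derived from SSC cultures as colonies that appeared after long expansion, on the Oct4-GFP (MASC.1, MASC.2), 129mix (MASC.3, MASC.4) and Gt(ROSA26)Sor-lacZ (MASC.5, MASC.6) backgrounds. ESC lines were Oct4-GFP (ESC.1) and 129mix (ESC.2), and the iPS lines were made from E13.5 MEF of tetO-4F2A and H3.3B-HA mice, listed as 129mix, with doxycycline at 2 µg/ml to switch on the reprogramming cassette. MASC, ESC and iPS lines were all grown on MEF feeders with LIF at 1000 U/ml, so the medium and the cell type cannot be told apart where any of them is set against SSC. HSC cultures started from lineage-negative C57Bl/6J bone marrow and were grown on human endothelial feeder cells that carry E4ORF1, with soluble Kit ligand at 10 ng/ml. The MEF sample came from E13.5 embryos of H3.3B-HA mice, listed as 129mix, and has no replicate. Lines of different strains came from different animals, but nothing in the labels says that lines of the same strain within a group did. The paper states that the MASC and ESC lines were subcloned. The p-values measure only the spread between these samples, and within a strain that spread may be technical.

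LIF brings Lifr and Il6st, which is also called gp130, together on the cell surface. The Janus kinases bound to their tails then phosphorylate the receptor and the Stat proteins, which pair and enter the nucleus. In mouse ESC, LIF acting through Stat3 is the classical signal that holds cells in an undifferentiated state. In blood cells the receptors for erythropoietin, thrombopoietin and interleukin-3 act mainly through Jak2 and the Stat5 proteins. Socs proteins are made in response to Stat signals and damp them, Socs3 by binding gp130 and its kinases and Socs2 chiefly at the growth hormone receptor. RNA level alone does not report whether a kinase or a Stat protein was active.

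The cell types carried their markers. Of 7 pluripotency markers the sum was 2766 to 4355 FPKM in MASC, 3690 to 4000 in ESC and 4552 to 6106 in iPS, against 11.5 to 149 in SSC. The sum of 7 spermatogonial markers was 484 to 580 FPKM in SSC and 11.2 to 34.8 in MASC. HSC cultures held 7 of 7 blood markers at 1 FPKM or more in both, but 7 mast cell markers summed to 25964 and 50379 FPKM there, above every other list in those cultures, and granulocyte and macrophage markers to 2121 and 2749 FPKM. Erythroid markers (16.98 and 18.7 FPKM) and endothelial markers (25.3 and 42.4 FPKM) were low there beside those sums. Both lists were still higher there than in any other sample, which held at most 12.1 and 18.6 FPKM. Of the endothelial markers, Pecam1 was 42.3 FPKM in HSC.1 and 19.2 FPKM in HSC.2. The MEF sample had a fibroblast sum of 5720 FPKM and also held 3402 FPKM of granulocyte and macrophage markers. Of these 7, Lyz2 was 3336 FPKM and Csf1r 64.4 FPKM, and the other 5 were under 1 FPKM, with Mpo and S100a9 at 0. The MEF sample also held 6 of the 7 blood markers at 1 FPKM or more, with Spi1 the highest at 46.1 FPKM. Fibroblast markers were found in several lines. The sum of 10 fibroblast markers was 956 FPKM in MASC.1, 848 in SSC.3, 363 in ESC.1, 356 in SSC.1 and 372 in HSC.2, and 4.39 to 116 in the other lines and HSC.1. In bulk RNA, fewer cells of a type and less RNA per cell cannot be told apart.

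The central result was a split within the pathway. SSC lines carried more RNA for both kinases and all 3 Stat factors than MASC and ESC lines, the receptor chains and Socs3 did not pass the test, and Socs2 went the other way. Of the 9 genes, 6 passed an adjusted p of 0.05 in MASC against SSC, Socs2 higher and 5 lower in MASC. Over all 32661 transcripts 30.9% passed in that comparison, 11.4% higher and 19.5% lower, and among transcripts of at least 1 FPKM in 2 or more lines 49.9% passed, so the count is read against a large background. The sizes set the genes further apart: Jak1 and Socs2 differed by over 2 on the log2 scale, which 3.86% of transcripts did and also passed.

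**Figure D1:**
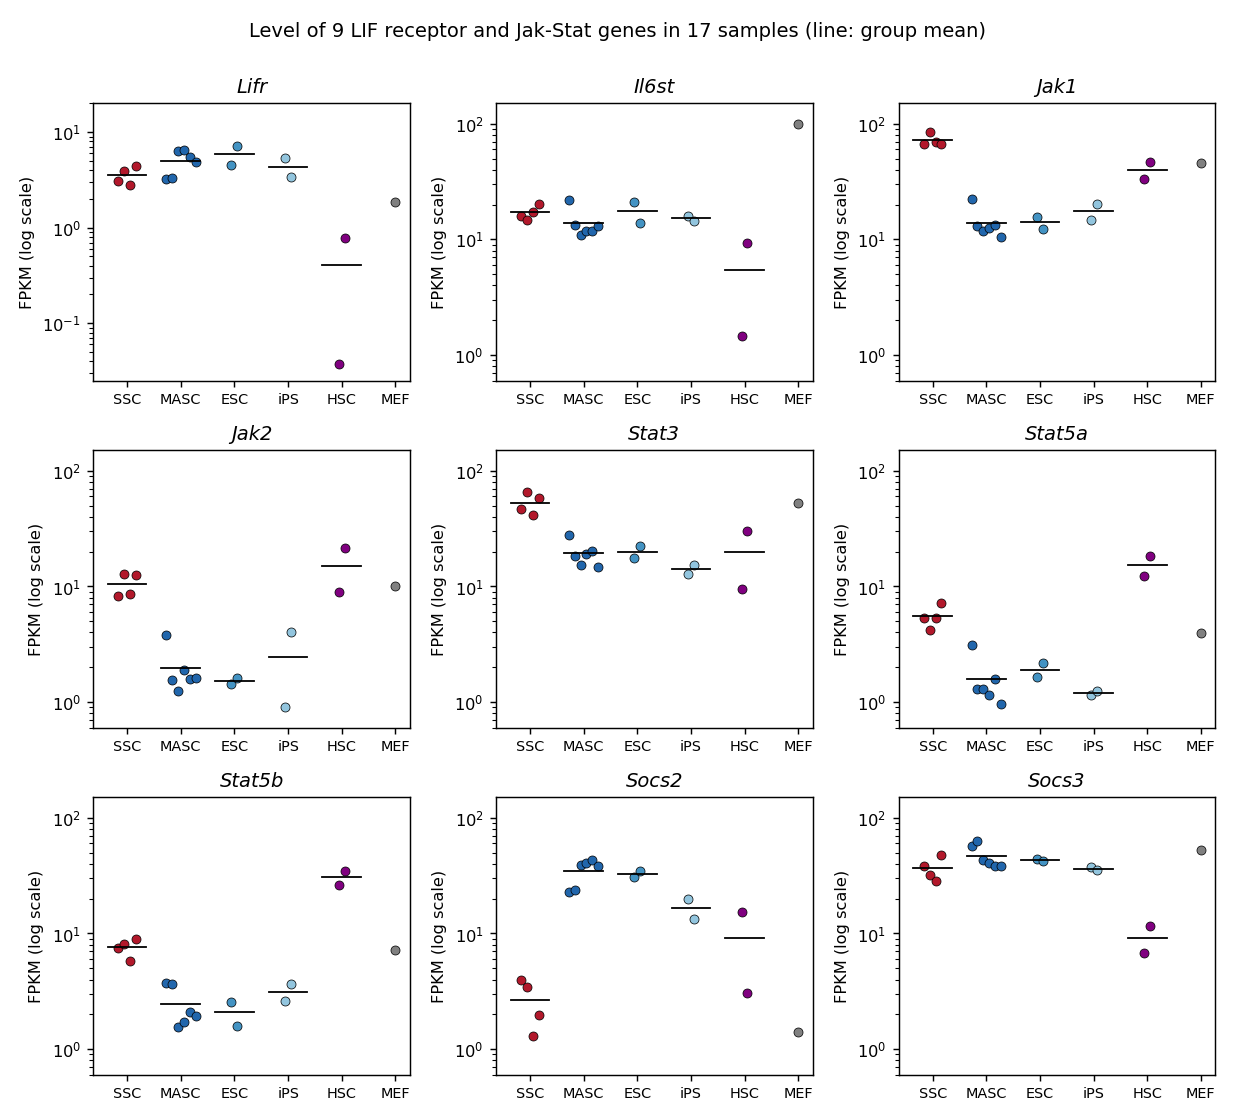
FPKM (log scale) of each gene in each of the 17 samples, by cell type, with a line at the mean of groups of 2 or more. The 4 SSC lines lie above the 6 MASC lines for Jak1, Jak2, Stat3, Stat5a and Stat5b and below them for Socs2, while Lifr, Il6st and Socs3 overlap; Lifr has its own axis range because it was at 0.038 FPKM in HSC.1.

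Lifr, the chain that makes the receptor specific for LIF and its close relatives, lies on chromosome 15 (mm9, 7090542 to 7147489, plus strand). Its level was 3.09, 3.90, 2.77 and 4.46 FPKM in SSC.1 to SSC.4, and 3.26, 5.23 and 6.52 FPKM as the lowest, median and highest of the MASC lines. ESC lines held 4.58 and 7.22 FPKM and iPS lines 5.35 and 3.39. SSC lines, grown with no listed LIF, thus held the receptor RNA at a level that overlapped that of the MASC lines. MASC minus SSC was 0.37 ± 0.21 (SE) in log2(FPKM + 1), adjusted p = 0.23, and ESC minus SSC was 0.59 ± 0.28, adjusted p = 0.19. The ranges of ESC (4.58 to 7.22) and SSC (2.77 to 4.46) did not overlap, but stood close together. Lifr was 1.87 FPKM in MEF and 0.038 and 0.775 FPKM in HSC.

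Lifr was read from the 9663-base transcript that encodes the chain with its membrane anchor. A second transcript of 2844 bases stops short, at position 7135343 of the same chromosome, and lacks the end of the gene. It made up 32.8% to 52.9% of the summed Lifr FPKM in SSC, 24.8% to 52.0% in MASC, 28.5% and 34.3% in ESC, and 21.9% and 29.1% in iPS. The shares of SSC and MASC lines overlap. In HSC.1 the short transcript took 93.9% of a gene sum of 0.615 FPKM, and in HSC.2 47.5% of 1.48 FPKM.

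Il6st encodes gp130, the signalling chain shared by LIF, interleukin-6, interleukin-11, oncostatin M and their relatives (chromosome 13, 113254278 to 113297068, plus strand). It ran at 16.1, 14.6, 17.4 and 20.3 FPKM in SSC.1 to SSC.4 and at 10.9, 12.5 and 21.8 FPKM (lowest, median, highest) in MASC. ESC lines held 21.1 and 14.0 FPKM and iPS lines 16.0 and 14.5 FPKM. Every group apart from HSC and MEF overlapped its neighbour in order of level. MASC minus SSC was -0.32 ± 0.19, adjusted p = 0.26, and ESC minus SSC was 0.01 ± 0.26, adjusted p = 1.

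The highest MASC value of Il6st, 21.8 FPKM, was that of MASC.1, the line richest in fibroblast markers, and the MEF sample held 99.8 FPKM. Without MASC.1 the difference was -0.45 ± 0.13, adjusted p = 0.029, so the side of the threshold on which Il6st fell depended on that line. With the 4 lines richest in fibroblast markers left out together (ESC.1, MASC.1, SSC.1 and SSC.3) it was -0.47 ± 0.14, adjusted p = 0.059. The part of feeder RNA in the Il6st values was not tested beyond these fits.

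Jak1, the kinase that gp130 depends on most (chromosome 4, 100824579 to 100937887, minus strand), was the most abundant of the 9 in each SSC line by the transcripts used. Summed over transcripts, the SSC median was 68.3 FPKM for Jak1 and 70.8 for Stat3. Its level was 66.3, 85.1, 69.9 and 66.7 FPKM in SSC.1 to SSC.4. MASC lines held 10.5, 12.8 and 22.4 FPKM (lowest, median, highest), ESC lines 15.8 and 12.4, and iPS lines 14.8 and 20.4. The highest LIF-grown line, MASC.1 at 22.4 FPKM, was far below the lowest SSC line. The mean was 5.16-fold higher in SSC than in MASC, and MASC minus SSC was -2.32 ± 0.18 on the log2 scale, adjusted p = 1.4e-05. ESC minus SSC was -2.28 ± 0.24, adjusted p = 2.0e-04.

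Jak2, which serves the growth hormone, erythropoietin and interleukin-3 receptors and also binds gp130, lies on chromosome 19 (29326293 to 29387570, plus strand). It was less abundant than Jak1 in every sample but moved with it. SSC lines held 8.27, 12.8, 8.61 and 12.6 FPKM, and MASC lines 1.24, 1.61 and 3.82 FPKM (lowest, median, highest). ESC lines held 1.43 and 1.62 FPKM, and iPS lines 0.914 and 4.02 FPKM. SSC and LIF-grown lines did not overlap. The fold of means was 5.40 in favour of SSC over MASC, and the difference was -1.99 ± 0.21, adjusted p = 9.5e-05. ESC minus SSC was -2.17 ± 0.29, adjusted p = 6.4e-04. The ratio of Jak1 to Jak2 was 5.29 to 8.12 in SSC and 5.85 to 9.59 in MASC.

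Stat3, the factor that carries the LIF signal to the nucleus, lies on the minus strand of chromosome 11 (100748124 to 100800825). It showed 46.4, 65.1, 41.8 and 57.7 FPKM in SSC.1 to SSC.4. MASC lines held 14.9, 18.7 and 27.7 FPKM (lowest, median, highest), ESC lines 17.7 and 22.3, and iPS lines 12.8 and 15.3. Stat3 RNA was therefore higher in the medium without listed LIF than in any LIF-grown line. The MASC lines differed from SSC by -1.41 ± 0.18, adjusted p = 3.1e-04, and ESC minus SSC was -1.34 ± 0.25, adjusted p = 0.0038. The SSC mean was 2.73-fold that of MASC.

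The tables hold 3 Stat3 transcripts, which share their ends and differ inside the coding sequence. The most abundant, of 4487 bases, encodes the full protein. The shortest, of 4437 bases, lacks 50 bases at the 5′ end of a late exon, which shifts the reading frame and gives Stat3 beta, a form without the C-terminal transactivation domain. The third, of 4484 bases, lacks 3 bases at the 3′ end of an earlier exon. Both places are shown because these few bases are all that told the forms apart in the read assignment. Sequences are from mm9, on the minus strand of chromosome 11, 5′ to 3′. The exon at chr11:100750792-100750904 has in capitals the 50 bases left out of the beta form, and the last 30 bases of the exon at chr11:100754388-100754417 have in capitals the 3 optional bases.
Stat3 exon with alternative 5′ end: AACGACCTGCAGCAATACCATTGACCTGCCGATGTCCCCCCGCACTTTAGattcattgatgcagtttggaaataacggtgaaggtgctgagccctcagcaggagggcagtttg
Stat3 exon with alternative 3′ end: gccaggagcaccccgaagccgacccagGTA

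Stat3 beta, the form with the 50 capital bases missing, took 4.46% of the summed Stat3 FPKM in SSC.1, 4.66% in SSC.2, 3.46% in SSC.3 and 4.21% in SSC.4. In MASC lines its share was 4.98%, 7.04% and 13.0% (lowest, median, highest). It was 8.75% and 7.38% in ESC.1 and ESC.2 and 16.3% and 13.46% in iPS.1 and iPS.2. It was 5.23% and 2.55% in HSC.1 and HSC.2 and 5.72% in MEF. The share was thus lower in SSC than in the LIF-grown lines, and the SSC and MASC ranges did not overlap, although the lowest MASC line lay close to the highest SSC line. In FPKM the form ran at 1.88 to 3.87 in SSC and 1.26 to 3.47 in MASC, so its level overlapped while that of the full form did not. This comparison was chosen after its values were seen and was given no test. The share rests on the reads that tell the forms apart at the 50 bases, and those reads were not counted here. The form that lacks 3 bases took 16.99% to 23.6% in SSC and 11.9% to 25.1% in MASC, with full overlap. Summed over the 3 transcripts, Stat3 was 54.2 to 83.0 FPKM in SSC and 19.8 to 37.3 FPKM in MASC.

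**Figure D2:**
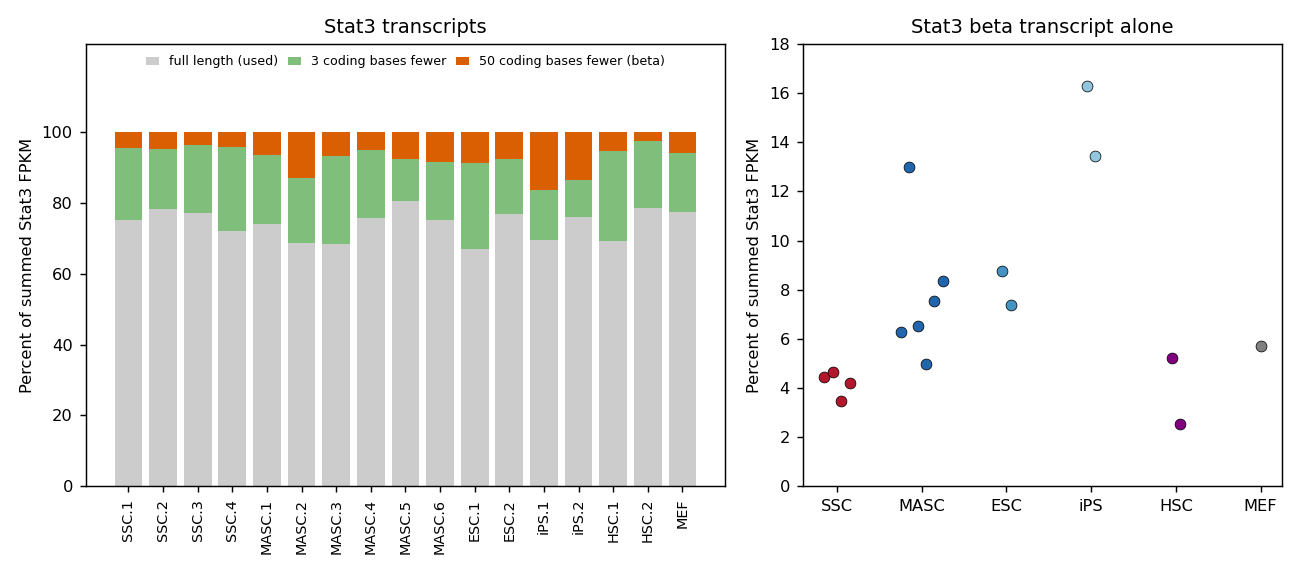
Left, share in percent of the summed Stat3 FPKM taken by each of 3 transcripts in each sample (stacked bars). Right, the share of the beta transcript alone, 1 point per sample by cell type: 3.46% to 4.66% in SSC, 4.98% to 13.0% in MASC and up to 16.3% in iPS.

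Stat5a and Stat5b, close paralogues that answer growth hormone, prolactin and many blood cytokines, followed the same order at lower levels. Stat5a (chromosome 11, 100721798 to 100746483, plus strand) ran at 5.36, 4.23, 5.36 and 7.22 FPKM in SSC.1 to SSC.4 and at 0.970, 1.30 and 3.13 FPKM (lowest, median, highest) in MASC. ESC lines held 1.65 and 2.16 FPKM and iPS lines 1.15 and 1.25 FPKM. MASC minus SSC was -1.37 ± 0.21, adjusted p = 7.2e-04.

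Stat5b (chromosome 11, 100642045 to 100711899, minus strand) ran at 7.56, 8.16, 5.76 and 8.97 FPKM in SSC and at 1.56, 2.02 and 3.73 FPKM (lowest, median, highest) in MASC. ESC lines held 2.58 and 1.59 FPKM, and iPS lines 2.58 and 3.63. For both paralogues each SSC line lay above each MASC, ESC and iPS line. MASC minus SSC was -1.35 ± 0.21 for Stat5b, adjusted p = 9.8e-04. Reads that map to both paralogues were excluded by the authors, so the level of each rests on the stretches in which they differ and is less certain than that of Stat3.

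ESC minus SSC was -1.49 ± 0.29 for Stat5b, adjusted p = 0.0049, and -1.16 ± 0.28 for Stat5a, adjusted p = 0.015. The Stat5a difference in ESC missed the threshold under several settings while its size changed less. It was -1.03 without ESC.1 (adjusted p = 0.11), -1.28 without ESC.2 (0.057), -0.84 after quantile normalization (0.051), -1.16 with strain in the fit (0.057) and -1.05 without the 4 lines richest in fibroblast markers (0.065). Stat5b was -1.25 without ESC.2 (0.061). A fit without 1 ESC line leaves a single one, which is assumed to vary like the other groups.

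Socs2, a feedback inhibitor best known for restraining growth hormone signalling (chromosome 10, 94874124 to 94879491, minus strand), showed the largest difference among the 9 genes and the opposite direction. SSC lines held 3.94, 3.44, 1.29 and 1.96 FPKM. MASC lines held 22.7, 38.6 and 42.9 FPKM (lowest, median, highest), and ESC lines 30.5 and 34.5 FPKM. iPS lines held 19.8 and 13.2 FPKM. Every LIF-grown line was thus above every SSC line. The mean was 13.0-fold higher in MASC than in SSC. MASC minus SSC was 3.30 ± 0.27, adjusted p = 1.6e-05, and ESC minus SSC was 3.26 ± 0.36, adjusted p = 2.2e-04. The 4 Socs2 transcripts in the tables moved together: the sum over them was 2.08 to 5.93 FPKM in SSC and 33.0 to 68.0 FPKM in MASC, and the transcript used took 58.1% to 75.7% of the sum in SSC and 59.2% to 71.3% in MASC.

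Socs3, the inhibitor that binds gp130 itself and is induced by LIF through Stat3 (chromosome 11, 117827401 to 117830680, minus strand), stood at a like level in SSC and in LIF-grown lines. SSC lines held 38.1, 32.1, 28.5 and 48.0 FPKM, and MASC lines 38.4, 41.7 and 63.2 FPKM (lowest, median, highest). ESC lines held 44.4 and 42.7, iPS lines 37.5 and 35.2 and the MEF sample 52.8 FPKM. The difference of MASC from SSC was 0.34 ± 0.18, adjusted p = 0.20, and ESC minus SSC was 0.27 ± 0.25, adjusted p = 0.54. Missing the threshold does not show that the levels were equal.

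The balance of both inhibitors therefore differed between cell types. The ratio of Socs3 to Socs2 FPKM was 9.33 to 24.5 in SSC and 0.893 to 2.67 in MASC. It was 1.24 and 1.45 in ESC, 1.90 and 2.66 in iPS and 37.7 in MEF.

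The exact permutation test over the 6 MASC and 4 SSC lines, two-sided, gave p = 0.0048 for Jak1, Jak2, Stat3, Stat5a, Stat5b and Socs2, the smallest value that its 210 arrangements allow. The same exact test gave p = 0.12 for Lifr, 0.14 for Il6st and 0.12 for Socs3. The ranges of the 2 groups did not overlap for the first 6, and 25.3% of all transcripts did not overlap between these lines.

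ESC against SSC gave the same 6 genes in the same directions, with 1 higher and 5 lower, where 21.4% of all transcripts passed, 7.67% higher and 13.8% lower. The share among expressed transcripts is not given for this comparison. Over all transcripts 2505 were higher and 4495 lower, against 2967 and 3384 after quantile normalization, and the 5 lower and 1 higher member kept their directions under it. The ranges of 7 of the 9 genes did not overlap between ESC and SSC, where 37.6% of transcripts did not. Jak1, Jak2 and Socs2 also passed a difference of 2, as 4.08% of transcripts did. Both contrasts use the same 4 SSC lines.

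MEF held Jak1 at 46.2, Jak2 at 10.2, Stat3 at 52.4, Stat5a at 3.97 and Stat5b at 7.18 FPKM, all above the MASC means, and Socs2 at 1.40 FPKM. The lines were also compared by their fibroblast sums. SSC.2 had the lowest fibroblast sum among SSC lines (32.4 FPKM). Its Jak1, Jak2 and Stat3 were the highest of them, its Stat5a the lowest and its Stat5b below that of SSC.4 only. However, SSC.2 also had the highest granulocyte and macrophage sum of the SSC lines, 239 FPKM, of which Lyz2 was 212 FPKM. The part of that signal in its levels was not tested. With the 4 lines richest in fibroblast markers left out, the same 6 genes passed in MASC against SSC. The differences were then -2.53 ± 0.13 for Jak1, -2.41 ± 0.10 for Jak2, -1.75 ± 0.14 for Stat3 and 3.36 ± 0.28 for Socs2. They were -1.54 ± 0.19 for Stat5a and -1.62 ± 0.24 for Stat5b, and none of the 6 was smaller than with all lines. That fit kept only SSC.2 and SSC.4 of the SSC lines and only ESC.2 of the ESC lines. The lines to leave out were chosen after seeing the data. The part of feeder RNA in these genes was not tested beyond these fits.

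**Figure D3:**
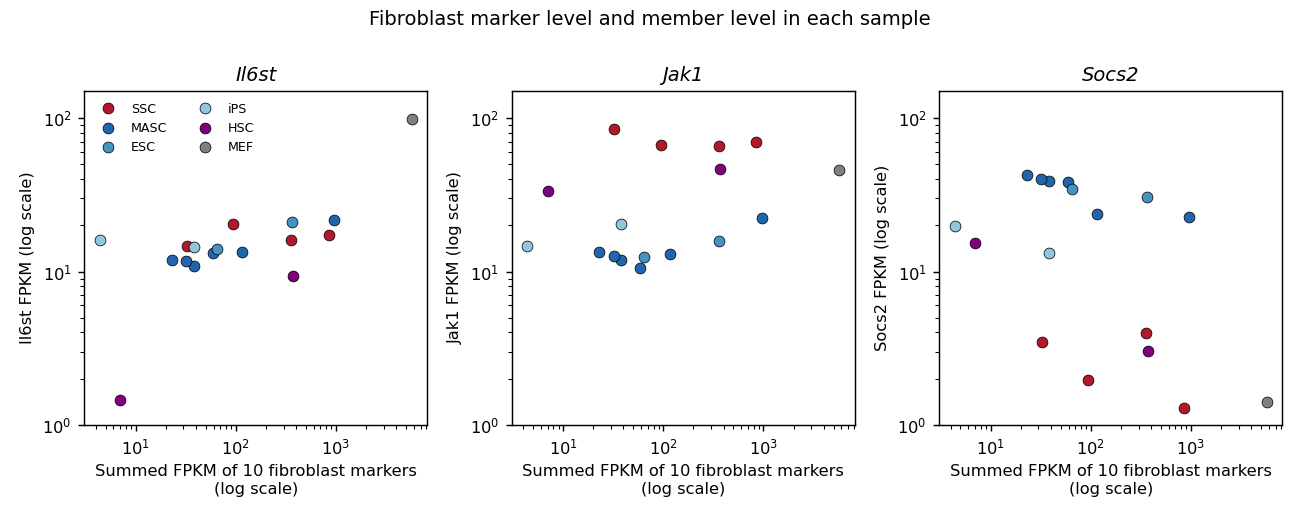
FPKM of Il6st, Jak1 and Socs2 against the summed FPKM of 10 fibroblast markers, 1 point per sample, both axes on a log scale. Jak1 separates SSC (66.3 to 85.1 FPKM) from MASC (10.5 to 22.4 FPKM) at low and at high fibroblast sums, while Il6st is highest in MEF at 99.8 FPKM.

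Strain entered as a further difference between lines. MASC.1 and MASC.2, both Oct4-GFP, held the lowest Lifr (3.26 and 3.28 FPKM) and Socs2 (22.7 and 23.7 FPKM) of the 6 MASC lines and the highest Socs3 (56.97 and 63.2 FPKM) and Stat5b (3.73 and 3.64 FPKM). Their fibroblast sums were also the highest of the 6 MASC lines, 956 and 116 FPKM against 22.9 to 58.9 in the others. Strain and fibroblast content thus cannot be told apart in these values. Within Oct4-GFP, MASC minus SSC was -2.07 for Jak1, -1.69 for Jak2, -1.25 for Stat3, -0.91 for Stat5a, -0.92 for Stat5b and 2.37 for Socs2. Within 129mix, with a single SSC line, it was -2.36, -2.42, -1.69, -1.89, -1.92 and 3.78 in the same order, so the direction was the same in both strains that have both cell types. It differed in sign between the strains for Lifr (-0.07 and 0.45), Il6st (0.15 and -0.79) and Socs3 (0.76 and -0.20), none of which passed overall. The interaction of strain and cell type passed for 0 of the 9 genes with limma, where 0.392% of all transcripts passed, with the smallest adjusted p at 0.067 for Socs2 and 0.081 for Stat5b, and for 2 of them (0.034 and 0.048) with a trended, robust variance, where 1.29% of transcripts passed. At an unadjusted p of 0.05, 4 of the 9 passed (Lifr, Stat5b, Socs2 and Socs3), where 10.8% of transcripts did.

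Among the lines that shared the LIF medium few transcripts of any kind passed. In MASC against ESC 0 of 9 genes passed with limma, against 0.0306% of all transcripts, and 0 of 9 had an unadjusted p under 0.05. The differences ran from -0.33 ± 0.24 for Il6st to 0.18 ± 0.27 for Jak2, and for all 9 genes the ranges overlapped, as they did for all but 5.62% of transcripts. That comparison shares the ESC lines with ESC against SSC and the MASC lines with MASC against SSC, so the 3 are not independent.

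In iPS against ESC 0 of 9 passed as well, against 0.309% of transcripts, with 0 of 9 at an unadjusted p under 0.05. The largest difference was that of Socs2, 19.8 and 13.2 FPKM in iPS against 30.5 and 34.5 in ESC, or -0.96 ± 0.57 on the log2 scale with an adjusted p of 0.83. The 2 iPS lines differed from each other most in Jak2, at 0.914 and 4.02 FPKM. The ranges of 5 of the 9 genes did not overlap, where with 2 lines on each side 40% of transcripts did not. Missing the threshold with so few lines does not show that the levels were equal.

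HSC cultures had a pathway of another make. Against the mean of the MASC, ESC and iPS groups, 8 of the 9 genes passed, 4 higher and 4 lower, where 33.3% of all transcripts passed, 15.9% higher and 17.4% lower. The share among expressed transcripts, which was larger in MASC against SSC (49.9% against 30.9%), is not given for this comparison. Both HSC cultures were C57Bl/6J and no LIF-grown line was. The HSC cultures also had no listed LIF and grew on human endothelial feeders in place of MEF. Strain, medium, feeders and cell type therefore cannot be told apart in this comparison. With strain in the fit 5 passed, and with the replicate block 6. Il6st and Socs2 lost their calls under both, at -1.83 (adjusted p = 0.17) and -0.82 (0.60) with strain and at -1.72 (0.055) and -1.70 (0.060) with the replicate block. The kinases and Stat5 factors were higher, the LIF receptor chains and both Socs genes were lower, and Stat3 did not pass. The ranges of 7 of the 9 genes did not overlap, where 35.8% of transcripts did not. Lifr, Jak2, Stat5a, Stat5b and Socs3 passed with a difference of over 2 in size, as 8.38% of transcripts did. The sum of mast cell markers quoted above moved with this group, and its part in these differences was not tested.

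Stat5b reached 26.3 and 34.9 FPKM in HSC.1 and HSC.2 and Stat5a 12.4 and 18.3 FPKM. The highest LIF-grown line held 3.73 and 3.13 FPKM. The differences were 3.18 ± 0.25 for Stat5b, adjusted p = 1.6e-06, and 2.68 ± 0.25 for Stat5a, adjusted p = 5.4e-06. Jak2, a kinase of several receptors that use Stat5, stood at 8.96 and 21.3 FPKM in HSC, a difference of 2.40 ± 0.38, adjusted p = 4.1e-04. Jak1 stood at 33.3 and 46.6 FPKM, a difference of 1.35 ± 0.23, adjusted p = 6.7e-04. With strain in the fit, Jak1 missed the threshold at an adjusted p of 0.058, with a difference of 1.25 ± 0.38.

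Stat3 was at 9.54 FPKM in HSC.1 and 29.9 FPKM in HSC.2, and these values lay on either side of all 10 LIF-grown lines. The difference was -0.03 ± 0.33, adjusted p = 1. For the transcripts used, the ratio of Stat3 to Stat5b was 0.363 and 0.858 in HSC, 6.14 to 7.98 in SSC, 5.03 to 11.1 in MASC and 7.31 in MEF. Summed over all transcripts of each gene, Stat3 and Stat5b were 13.8 and 27.2 FPKM in HSC.1 and 38.1 and 37.8 FPKM in HSC.2, ratios of 0.505 and 1.01, so that Stat5b was above Stat3 on the sum in HSC.1 only. In the other 15 samples the summed ratio was 5.54 to 18.3.

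Lifr at 0.038 and 0.775 FPKM was the scarcest of the 9 genes in HSC, with a difference of -2.13 ± 0.28, adjusted p = 1.0e-04. Socs3 was 6.73 and 11.6 FPKM, with a difference of -2.11 ± 0.24, adjusted p = 2.7e-05, and each HSC culture lay below each other sample. Il6st was 1.46 and 9.33 FPKM and Socs2 15.4 and 3.03 FPKM, so the cultures differed widely in both genes, and HSC.1 lay above iPS.2 in Socs2. The differences were -1.69 ± 0.40 for Il6st, adjusted p = 0.0064, and -1.74 ± 0.46 for Socs2, adjusted p = 0.011.

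Those last calls rested on single cultures. HSC.2 carried a fibroblast sum of 372 FPKM and HSC.1 one of 7.03 FPKM. Without HSC.1 the Il6st difference was -0.65 ± 0.30, adjusted p = 0.14, and without HSC.2 the Socs2 difference was -0.72 ± 0.43, adjusted p = 0.30. Lifr, Socs3, Jak1, Jak2, Stat5a and Stat5b passed with either culture left out. Each such fit leaves 1 HSC culture, which is assumed to vary like the other groups.

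**Figure D4:**
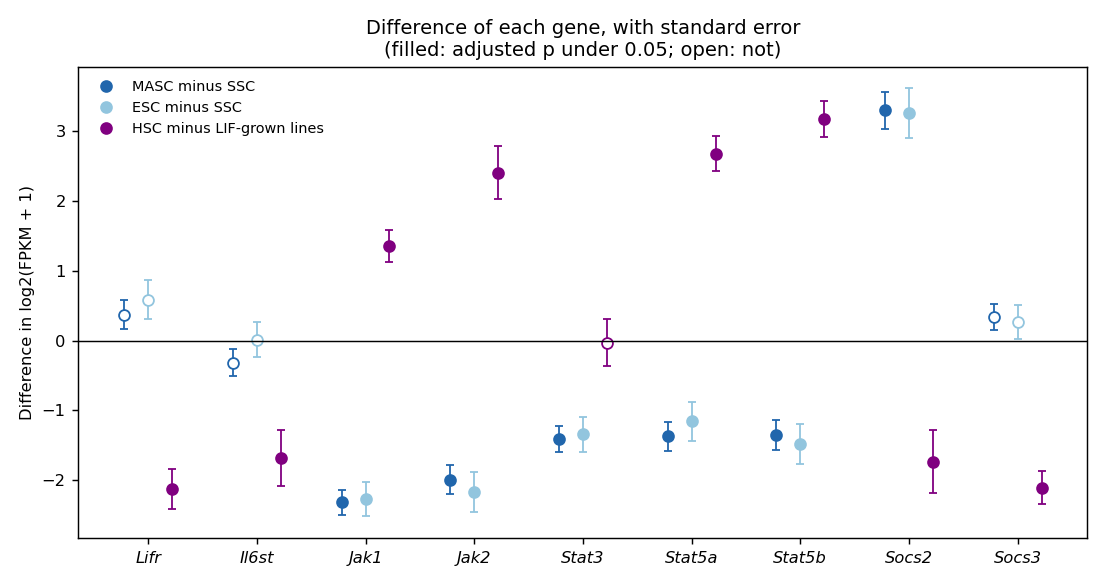
Difference in log2(FPKM + 1) of each gene with its standard error for MASC minus SSC, ESC minus SSC and HSC minus the LIF-grown lines; filled points passed an adjusted p of 0.05 in limma. Jak1 and Jak2 are at -2.32 and -1.99 in MASC minus SSC, Socs2 is at 3.30, and in HSC minus the LIF-grown lines, which share the MASC lines, Stat5b is at 3.18 and Lifr at -2.13.

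Around these 9 genes, 67 others of the pathway were examined in 7 lists. In MASC against SSC 20 were higher and 20 lower, where 30.9% of all transcripts and 49.9% of those of at least 1 FPKM in 2 or more lines passed, and 18 passed with the replicate block. Their median difference was -0.05, where that of all transcripts was -0.005 and that of transcripts of at least 1 FPKM in 2 or more lines was -0.16. The lists did not move as 1 block. Genes known to be targets of Stat3 in ESC were mostly higher and inhibitors mostly lower.

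Of 8 ligands 1 was higher and 1 lower. Osm, oncostatin M, was 0.0277 to 0.0829 FPKM in SSC and 0.717 to 1.89 in MASC, a low level in both, with a difference of 1.07 ± 0.22. Clcf1 was 5.94 to 25.8 FPKM in SSC and 1.04 to 10.7 in MASC, a difference of -1.80 ± 0.57, with its highest MASC value in MASC.1. Lif itself had medians of 0.275 FPKM in SSC and 1.31 in MASC and did not pass, with an adjusted p of 0.66 and values up to 5.36 FPKM in SSC.3.

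Among 19 other receptors 3 were higher and 7 lower in MASC, with a median of -0.38. Ifngr1, the ligand-binding chain of the interferon gamma receptor, was 12.7 to 23.6 FPKM in SSC and 2.36 to 7.05 in MASC, a difference of -1.93 ± 0.27. Il11ra1 (-1.49 ± 0.32), Ifngr2 (-1.38 ± 0.38) and Epor (-1.28 ± 0.36) were lower too, and Il11ra1 and Ifngr2 had their highest MASC values in MASC.1.

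Of 6 other kinases and phosphatases 3 were higher and 2 lower. Ptpn6, the phosphatase SHP-1 that dampens cytokine receptors, was 0.352 to 3.68 FPKM in SSC and 4.47 to 10.3 in MASC, a difference of 2.07 ± 0.40. Jak3, which works with the common gamma chain, was higher by 1.06 ± 0.26. Thus Jak3 ran opposite to Jak1 and Jak2, though its SSC and MASC ranges overlapped. Tyk2 went with Jak1 and Jak2, with a difference of -0.92 ± 0.17, adjusted p = 0.0024 in limma. Among the remaining Stat factors, Stat4 (1.66 ± 0.27) and Stat6 (1.53 ± 0.21) were higher in MASC. Stat6 was 1.55 to 4.12 FPKM in SSC and 6.99 to 11.6 in MASC, and Stat4 0.0392 to 0.623 and 1.08 to 4.92 FPKM.

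Of 10 other inhibitors 1 was higher and 6 lower, with a median of -0.69. Socs1 was 8.47 to 25.6 FPKM in SSC and 2.03 to 8.26 in MASC, a difference of -1.70 ± 0.41. Socs7 (-1.49 ± 0.13), Socs5 (-1.64 ± 0.38) and Pias1 (-1.17 ± 0.12), a SUMO ligase that restrains Stat factors, were lower as well. Socs2, higher in MASC, thus went against Socs1, Socs5 and Socs7. Cish, a Stat5 target that inhibits cytokine receptors, was 4.29 to 9.15 FPKM in SSC and 3.41 to 4.53 in MASC, a difference of -0.75, adjusted p = 0.0074.

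Of the 14 Stat3 target genes of ESC 8 were higher and 2 lower in MASC, with a median of 1.54. Klf5 was 1.60 to 6.64 FPKM in SSC and 52.2 to 102 in MASC, a difference of 4.30 ± 0.29. Esrrb was 1.22 to 6.82 and 65.5 to 119 FPKM, a difference of 4.20 ± 0.32. Gbx2 (3.02 ± 0.50), Myc (2.81 ± 0.59) and Bcl3 (2.79 ± 0.33) followed. These genes are also part of the wider pluripotent programme. Pramef12 was lower, at 17.4 to 60.7 FPKM in SSC and 4.87 to 8.54 in MASC, and Pim1 was lower by a difference of -0.97, adjusted p = 0.049. Klf4, a classical target, was 7.21 to 50.1 FPKM in SSC and 30.7 to 123 in MASC and did not pass, with an adjusted p of 0.19.

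Of 9 Stat5 target genes 3 were higher and 3 lower in MASC. Ccnd2, cyclin D2, was 34.6 to 310.1 FPKM in SSC and 2.06 to 13.7 in MASC, a difference of -3.82 ± 0.72. Id1 (2.05 ± 0.67) and Pim2 (1.07 ± 0.34) were higher. The median was -0.01. Osm, Cish and Pim1 stand in more than 1 list and count in each.

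**Figure D5:**
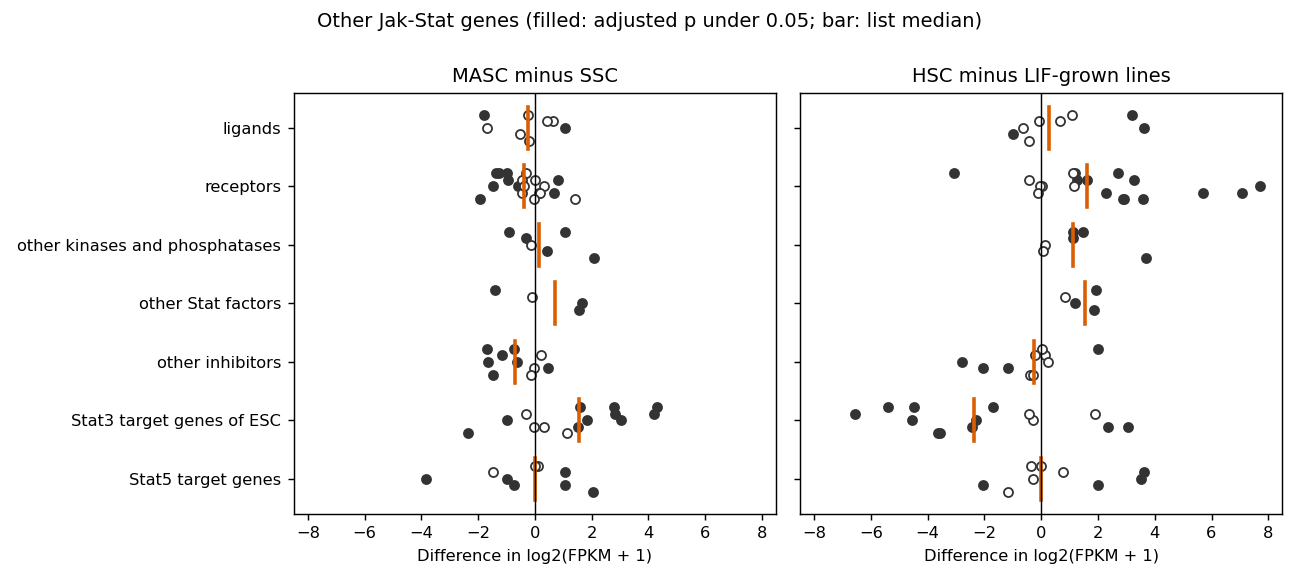
Difference in log2(FPKM + 1) of the 67 other pathway genes by list, for MASC minus SSC (left) and HSC minus the LIF-grown lines (right). Each point is a gene, filled where the adjusted p was under 0.05, and the bar is the list median, 1.54 and -2.36 for the Stat3 target genes of ESC and -0.38 and 1.62 for the receptors.

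In HSC 25 of the 67 genes were higher and 15 lower than in the LIF-grown lines, where 15.9% of all transcripts were higher and 17.4% lower. Of 19 receptors 12 were higher and 1 was lower, with a median of 1.62. Csf2rb, the signalling chain shared by interleukin-3, interleukin-5 and GM-CSF, was 527 FPKM in HSC.1 and 124 FPKM in HSC.2 against 0.0892 to 0.715 in MASC. For the other listed genes the lower of both HSC values is given first. Csf2rb2, its close relative, stood at 71.3 and 348 FPKM. These paralogues share sequence, so the split between them is uncertain. Il2rg, the common gamma chain, was 105 and 173 FPKM, Il3ra 63.5 and 141 FPKM, Il10rb 19.6 and 27.6 FPKM, and Cntfr was lower at 0.00125 and 0.270 FPKM.

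The ligands Osm (21.1 and 25.8 FPKM) and Il6 (10.6 and 16.4 FPKM) were higher in HSC and Ctf1 was lower (-1.01 ± 0.25). Among kinases and phosphatases Ptpn6 (3.69 ± 0.46), Tyk2 (1.49 ± 0.19), Ptpn1 (1.14 ± 0.12) and Jak3 (1.11 ± 0.30) were higher, 4 of 6 with 0 lower. Stat6 (1.87 ± 0.23) and Stat4 (1.20 ± 0.34) were higher too. Mast cells and their progenitors are known to use many of these receptors, and the lists were not compared with any other list.

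The targets parted in HSC. Of the 14 Stat3 target genes of ESC 9 were lower and 2 higher, with a median of -2.36. Esrrb (-6.55 ± 0.36), Klf5 (-5.41 ± 0.36), Tfcp2l1 (-4.54 ± 0.44), Sgk1 (-4.50 ± 0.61), Klf4 (-3.65 ± 0.80) and Pramef12 (-3.55 ± 0.37) led. Of the 9 Stat5 target genes 3 were higher and 1 lower: Osm (3.61 ± 0.25), Ccnd2 (3.52 ± 0.84) and Cish (1.99 ± 0.31) against Pim2 (-2.04 ± 0.38). Of 10 other inhibitors Pias2 (-2.78 ± 0.10), Pias3 (-2.04 ± 0.30) and Socs6 (-1.18 ± 0.19) were lower, and Cish was the single one higher. Cish stood at 25.4 FPKM in HSC.1 and 8.36 FPKM in HSC.2, and Socs2 at 15.4 and 3.03 FPKM in the same order. Stat5a and Stat5b were higher in HSC.2. Of the Stat5 target genes, Cish, Pim1, Osm and Ccnd2 were higher in HSC.1 and Pim2, Bcl2l1, Id1, Il2ra and Bcl6 in HSC.2.

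Stat proteins bind pairs of TTC and GAA set 3 or 4 bases apart. The pattern TTCNNNGAA was searched in RefSeq promoters of GRCm38.p6, which run from 250 bases before to 50 bases after each start. It reads as the same pattern on both strands, and 8.30% of 32851 promoters held it. The wider TTCNNNNGAA was in 6.95%. Of the 9 genes 8 had a promoter in the table, with 11 promoters among them, and Socs2 was the ninth. TTCNNNGAA occurred in 1 of the 11, that of Socs3, and TTCNNNNGAA in 0. Since Socs3 is the textbook LIF feedback gene, the 250 bases before its start are shown, with the match at -154 to -146 from the start in capitals (GRCm38.p6, chr11:117969367-117969616, minus strand, 5′ to 3′).
Socs3 promoter: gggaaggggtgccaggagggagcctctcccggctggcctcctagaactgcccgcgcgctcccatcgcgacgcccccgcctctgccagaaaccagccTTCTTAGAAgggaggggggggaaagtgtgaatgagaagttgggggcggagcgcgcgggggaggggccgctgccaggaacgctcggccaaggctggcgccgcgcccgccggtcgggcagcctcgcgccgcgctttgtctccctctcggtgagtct
The same 250 bases were found once on mm9 chromosome 11, at chr11:117830681-117830930 on the minus strand, directly before the Socs3 transcript of the tables. In the GENCODE M1 annotation the gene reaches 117831361, past these bases, so the positions given hold for the RefSeq start.

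Among the other inhibitors Cish was the only gene of the 5 with a promoter in the table to hold TTCNNNGAA. It held 2, side by side at the annotated start, bases 1 to 20 of the transcript (GRCm38.p6, chr9:107296659-107296678, plus strand). Cish was higher in HSC than in the LIF-grown lines and lower in MASC than in SSC. Between the HSC cultures, Cish was higher in HSC.1, and Stat5a and Stat5b were higher in HSC.2. A part of Stat5 in the level of Cish was not tested. In the other lists Csf2rb2, Ifnar1, Ifnar2, Prlr, Esrrb, Sgk1, Zfp36 and Bcl6 held the same pattern.
Cish start, both matches in capitals: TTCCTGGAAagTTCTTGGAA
A match describes the letters only and does not show that a Stat protein was bound there.

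Over the 17 samples the genes whose levels ran most like those of a member were named by Pearson's r of log2(FPKM + 1), among 16606 transcripts. For Jak1 these were Tdrd7 (0.98), a germ cell RNA granule gene, Ptpra (0.98) and Plekhb2 (0.98). For Jak2 they were 5430417L22Rik (0.97), H2-M3 (0.96) and Ifngr1 (0.96). For Stat3 they were Dcaf5 (0.96), Il13ra1 (0.95) and Iqsec2 (0.94). Stat5a and Stat5b shared Grin2d (0.97 with Stat5b, 0.96 with Stat5a), beside Ndst2 (0.97) and Tsc22d4 (0.96) for Stat5a and Csk (0.97) and Tm6sf1 (0.97) for Stat5b.

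For Socs2 the nearest were Rcc1 (0.96), Ecd (0.96) and 2310022A10Rik (0.96), and for Socs3 Tulp3 (0.95), Fkbp1a (0.94) and Rps24 (0.94). For Lifr they were Rcbtb1 (0.96), Zfp532 (0.95) and N4bp1 (0.95), and for Il6st, which is highest in MEF, Ston1 (0.95), Extl3 (0.94) and Igf2r (0.94). The samples share groups, feeders and medium, so these values mostly repeat the differences between cell types.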

How the data were processed

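RNA-seq was analysed in 17 mouse samples. The authors prepared TruSeq libraries, aligned reads to mm9 with TopHat2 2.0.11, left out duplicate and multi-mapped reads, and deposited FPKM values per RefSeq transcript from Cufflinks (version not given in the sources used here) with upper-quartile and GC normalization. The deposited tables also give the authors' coverage per transcript (reads per base, from Cufflinks), from which depth was judged, since no read counts were used here. From 33262 rows, 601 further copies of a transcript were dropped, leaving 32661. limma 3.58.1 was fitted to log2(FPKM + 1) over all transcripts, with Benjamini-Hochberg adjustment and 0.05 as the threshold. The fit held the 12 SSC, MASC and ESC lines, or all 17 samples for iPS and HSC. A fold on this scale understates the change of low genes. The scripts were tested on simulated data. Exact permutation tests, transcript sums, other settings and lines left out were alternatives. All 9 members were named, with up to 6 genes per list that passed with a log2 difference of at least 1 and, per member, the 3 most alike transcripts. Members and lists were chosen with earlier results of these data known. Genes outside this rule (Lif, Klf4, Pim1, and Cish and Tyk2 in MASC against SSC) were named after their values were seen. 1 listed gene is not reported here.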

Additional observations from a re-analysis of the deposited data

Results flagged for a closer look

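Among 98 groups of 4 or 6 lines (members and named pathway genes in SSC and MASC), 20 held a line whose gap to the next was larger than Dixon's 95% critical value. Chance gives about 1 in 20 such groups, and the genes are not independent of each other.

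MASC.1 was the line set apart in 11 of the 20. It was the highest MASC line for 4 members: Il6st at 21.8 FPKM (10.9 to 13.3 in the other 5), Jak1 at 22.4 (10.5 to 13.4), Jak2 at 3.82 (1.24 to 1.90) and Stat5a at 3.13 (0.970 to 1.59). It was also highest for Clcf1 at 10.7 FPKM, Il11ra1 at 6.77, Ifngr2 at 13.9, Socs5 at 9.62, Ccnd2 at 13.7, Il6 at 2.35 and Esrrb at 119 FPKM. The fibroblast sum of MASC.1 was 956 FPKM against 22.9 to 116 in the other MASC lines. Its part in these values was not tested.

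MASC.2 stood apart in Epor, at 1.55 FPKM against 0.572 to 0.801 in the other MASC lines, and in Tfcp2l1, at 5.93 FPKM against 17.8 to 23.6. SSC.3 stood apart in Myc, listed at 0.00343 FPKM against 2.42 to 2.50 in the other SSC lines, in Id1, at 49.0 against 4.87 to 9.26, and in Il6, at 8.19 against 0.103 or less. SSC.2 stood apart in Ccnd2, at 310.1 FPKM against 34.6 to 45.3, and in Ptpn6, at 3.68 against 0.352 to 0.579. SSC.1 stood apart in Tyk2, at 23.4 FPKM against 13.2 to 14.0, and SSC.4 in Epor, at 10.97 against 1.76 to 2.55.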

How the results depend on the processing

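The files hold no read counts, groups of 2 lines and a lone MEF sample limit what could be detected, and medium, feeders and cell type changed together. In MASC against SSC the 6 calls among the members were 6 to 7 with each line left out. In ESC against SSC they were 4 to 6, and in HSC 7 to 8. With a log2 difference of at least 2 required as well, 2 members passed in MASC against SSC, 3 in ESC against SSC and 5 in HSC. With strain in the fit 5 members passed in HSC in place of 8: the difference was -1.83 for Il6st (adjusted p = 0.17) and -0.82 for Socs2 (0.60). Of the 67 pathway genes, 40 passed in HSC against 26 with strain in the fit. Both HSC cultures were C57Bl/6J, a strain that only SSC.3 shared, so these fits cannot part strain from cell type, medium or feeders. The interaction of strain and cell type passed for 2 members with a trended, robust variance, against 0. The cause of that last change was not tested.

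The replicate numbers did not pair the SSC and MASC lines: deviations of lines with the same number correlated at -0.231 to 0.190 (mean -0.0314). Those of SSC and ESC, with 2 pairs, correlated at 0.215 and 0.269 against a mean of -0.081 for other numbers. The deviations of only 2 ESC lines mirror each other, so these correlations cannot show whether SSC and ESC numbers pair. With the replicate block 5945 transcripts passed in MASC against SSC in place of 10099, the same number of members (6) did, and 18 pathway genes did in place of 40. In ESC against SSC the replicate block gave -1.19 for Stat5a (adjusted p = 0.12). In HSC it gave -1.72 for Il6st (0.055) and -1.70 for Socs2 (0.060).

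Changes of sign touched only differences that had not passed. In ESC against SSC, Il6st was -0.054 with the replicate block, -0.29 without the 4 lines richest in fibroblast markers (chosen after seeing the data), and -0.27 to 0.30 over lines left out. In MASC against ESC, the replicate block gave 0.19 for Jak1, 0.12 for Stat3 and -0.071 for Socs2, strain in the fit gave 0.045 for Jak1 and -0.10 for Socs2, FPKM summed per gene gave -0.011 for Socs2, and leaving out the fibroblast-rich lines gave -0.025 for Jak2. Over lines left out, that comparison ran from -0.50 to 0.063 for Lifr, -0.21 to 0.12 for Jak1, -0.23 to 0.091 for Stat3, -0.10 to 0.37 for Stat5b, -0.045 to 0.15 for Socs2 and -0.020 to 0.12 for Socs3. In iPS against ESC it ran from -0.44 to 0.12 for Il6st and -0.40 to 0.99 for Jak2. In HSC, Stat3 was 0.020 after quantile normalization, 0.34 with strain in the fit and -0.81 to 0.75 over samples left out, highest without HSC.1.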

Other observations

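The pathway lists showed a like split in ESC against SSC, which shares the SSC lines with MASC against SSC. Of the 67 genes 14 were higher and 15 lower in ESC, where 7.67% of all transcripts were higher and 13.8% lower. Of the 10 other inhibitors 0 were higher and 6 lower, with a median of -0.76, and of the 14 Stat3 target genes 8 were higher and 1 lower, with a median of 1.91. In MASC against ESC and in iPS against ESC 0 of the 67 passed.

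The balance of the receptor chains also varied. The ratio of Il6st to Lifr FPKM was 3.75 to 6.29 in SSC, 1.72 to 6.70 in MASC, 1.93 and 4.60 in ESC and 2.99 and 4.28 in iPS. It was 12.03 and 38.6 in HSC and 53.4 in MEF. The ratio of Jak1 to Jak2 was 2.18 and 3.72 in HSC, below the 5.07 of the lowest other line and the 4.54 of MEF.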
